A study of Rattus norvegicus with 18 samples.

Results

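rno-miR-219-2-3p, a microRNA tied to oligodendrocytes, the cells that make myelin, was followed through the development of the rat cerebral cortex. It is 1 of 786 sequences counted here. Its reads were the tags (distinct sequences with a read count) that matched its 22-nt mature sequence over their common length, started within 3 nt of its 5′ end and ended at most 3 nt past its 3′ end. A total of 82 distinct tags with 311044 reads met this rule, and none of them fitted another sequence counted. Small RNA was sequenced from Sprague Dawley rats at 8 stages, embryonic days 10, 13 and 17 (E10, E13, E17) and postnatal days 0, 3, 7, 14 and 28 (P0 to P28). All animals were untreated as far as the labels say. The labels name the tissue forebrain at E10 and E13 and cortex from E17 on. The study's methods instead speak of the entire cortex at E10 and E13, and of dorsolateral, mainly somatosensory, cortex for the later stages. They add, without naming stages, that meninges and subcortical tissue were taken off. The dissection at E10 and E13 is thus uncertain, and these samples are called forebrain here only after their labels. Only P0 had 2 tissue samples, the other stages having 1, and each of the 9 tissue samples was sequenced in 2 runs, which gave 18 libraries of 4899010 to 16590379 reads.

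A microRNA is cut from a hairpin precursor, loaded into an Argonaute protein and guided to its target mRNAs mainly by the seed, bases 2 to 8 from its 5′ end. Each hairpin can give a product from its 5′ arm (5p) and one from its 3′ arm (3p). miR-219 and miR-338 are known for promoting the maturation of oligodendrocyte precursor cells, in part by repressing genes that hold these cells in the precursor state, and myelination of the rodent cortex takes place after birth. The 5p and 3p arms of miR-219 have different seeds, so this role is not assigned to rno-miR-219-2-3p here. The files hold only small RNA, so myelin mRNAs could not be looked at, and in bulk tissue fewer cells of a type and less of the RNA per cell cannot be told apart.

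The precursor that gives rno-miR-219-2-3p is Mir219-2, at chr3:33516504-33516599 on the minus strand of GRCr8 in RefSeq, from which all mature and precursor sequences here are taken. It lies within the spans that RefSeq gives to the protein-coding gene Cercam and to the long non-coding RNA LOC120101515, and opposite Mir2964, whose product rno-miR-219b comes from the other strand of the same place. The table used gives no exons for these genes. The sequence is shown first because every result below depends on its ends. Both mature arms are in capitals in the precursor, and the seed is in capitals in the mature sequences.
Mir219-2 precursor: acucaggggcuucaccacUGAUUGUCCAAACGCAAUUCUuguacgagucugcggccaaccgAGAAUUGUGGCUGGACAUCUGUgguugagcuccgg
rno-miR-219-2-3p: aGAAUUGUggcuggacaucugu
rno-miR-219a-5p: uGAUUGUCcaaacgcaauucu
rno-miR-219a-1-3p: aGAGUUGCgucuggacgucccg
rno-miR-219b: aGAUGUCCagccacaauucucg
The mature rno-miR-219-2-3p covers chr3:33516517-33516538 on the minus strand. rno-miR-219a-5p is the other arm of the same precursor (chr3:33516561-33516581, minus strand), and an identical 5p arm comes from Mir219a1 (chr20:4831580-4831689, plus strand), so its reads alone do not name the precursor. rno-miR-219a-1-3p, the 3′ arm of Mir219a1 (chr20:4831641-4831662, plus strand), shares 15 of 22 positions with rno-miR-219-2-3p. The differences, counted from the 5′ end with the base of rno-miR-219-2-3p first, are A4G, U8C, G10U, A17G, U20C, G21C and U22G, so its seed is another. rno-miR-219b (chr3:33516519-33516540, plus strand) is complementary to positions 1 to 20 of rno-miR-219-2-3p.

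The E10 library of run 2 stood apart in the 3′ ends of its tags. Over 225 other miRNAs with at least 1000 reads in it, the median share of reads identical to the full mature sequence was 46.7%, against 6.96% to 16.5% in the other 17 libraries, and for rno-miR-219-2-3p this share was 87.2%, against 0% to 2.51%. The tests of rno-miR-219-2-3p were repeated without it. The runs also differed from each other for many miRNAs. Of the names with at least 100 reads in both runs of a tissue sample, 33.5% (P0 replicate 1) to 72.2% (P3) were within 2-fold of each other in clean-read share (TPM, reads per 1000000 clean reads). The runs are repeat sequencing of 1 tissue sample and were never counted as replicates.

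rno-miR-219-2-3p rose from a rare to an abundant miRNA between P3 and P28. In run 1 its level was 28.3 TPM at E10, 488 at E13, 58.3 at E17, 139.5 and 5.95 in the P0 samples, 59.1 at P3, 2972 at P7, 6223 at P14 and 17548 at P28. In run 2 the levels were 91.4, 75.6, 10.3, 14.1 and 6.66, 66.6, 404, 838 and 3316 TPM in the same order. In both runs the P7, P14 and P28 samples lay above all 6 earlier tissue samples, and E13 and the second P0 sample were the highest and lowest of these in run 1. At P28 the miRNA took 1.75% of all clean reads in run 1 (95% exact binomial interval 17467 to 17630 TPM) and 0.332% in run 2 (3288 to 3343 TPM). These intervals cover counting error only. It ranked 10th of 554 detected sequences in the P28 library of run 1 and 27th of 594 in that of run 2, whereas in the second P0 sample it ranked 268th of 560 and 250th of 567. The fewest reads behind a value were 61, in run 1 of that P0 sample.

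**Figure D1:**
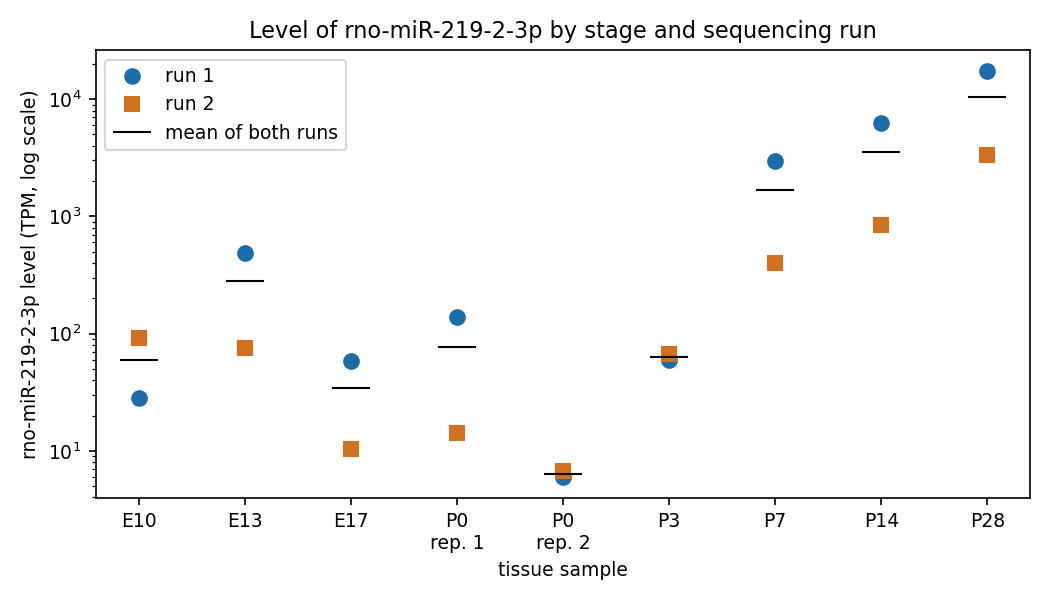
Level of rno-miR-219-2-3p in each of the 9 tissue samples, in TPM on a log axis, with circles for run 1, squares for run 2 and a bar for their mean. The means of P7 (1688 TPM), P14 (3530.2 TPM) and P28 (10432 TPM) lie above the highest earlier mean, 282 TPM at E13.

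The steps between stages were read against the gap between the P0 tissue samples, the only biological replicates. Those samples differed 12.2-fold with the runs averaged, 23.5-fold in run 1 and 2.12-fold in run 2. From P3 to P7 the level went up 26.8-fold with the runs averaged, and by 50.3 times in run 1 and 6.06 times in run 2, more than the P0 gap each time. The step from P7 to P14 (2.09 and 2.07 times) did not exceed it in either run. The step from P14 to P28 was 2.82 times in run 1 and 3.96 times in run 2, and only the latter exceeded the P0 gap of its run. From E10 to E13 the ratio was 17.2 in run 1 and 0.827 in run 2, and from E13 to E17 it was 0.119 and 0.136. With the runs averaged, no step between neighbouring stages from E10 to P3 exceeded the P0 gap, while in run 2 those from E13 to E17 and from P0 to P3 (6.41 times) did.

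The size of the increase depended on the run. The level in run 1 was 5.29 to 9.87 times that in run 2 in E13, E17, P0 replicate 1, P7, P14 and P28, whereas in E10, P0 replicate 2 and P3 it was 0.310, 0.893 and 0.887 times that in run 2. In the first 6 tissue samples only 6 to 18 of 212 to 267 other names had a larger ratio of run 1 to run 2, so rno-miR-219-2-3p was near the end of the range there. From P3 to P28 the level went up 297 times in run 1 against 49.7 times in run 2. The cause of this gap between runs was not tested.

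A model across all 559 names with at least 10 reads in 2 or more tissue samples ranked rno-miR-219-2-3p 5th by the size of its rise over the order of the 8 stages and 57th by the p-value of that trend, and first by both for late against early samples. The slope was 1.03 log2 units from each stage to the next (SE 0.19, edgeR quasi-likelihood test with the runs summed, adjusted p = 0.000891), where 15.6% of the names had a positive slope past an adjusted p of 0.05 and 30.6% a negative one. P7 to P28 exceeded E10 to P3 by 5.87 log2 units (SE 0.81, edgeR adjusted p = 0.00393), the largest late increase of the 559 names, where 9.48% of names were higher and 16.6% lower. The median late difference over all names was -0.62, and -0.36 with the size factors of DESeq2. The background counts depended on scaling, with 53 names higher and 93 lower late against early under TMM, 101 and 120 under DESeq2 and 7 and 1 without TMM, while over the stage order 87 rose and 171 fell under TMM against 53 and 212 without it. The mean log2 TPM was 11.95 ± 1.32 (SD, n = 3) late and 5.67 ± 1.79 (SD, n = 6) early, a difference of 6.28 (exact two-sided permutation test, p = 0.0238, the smallest p that 3 samples against 6 allow). The late and early samples did not overlap, which held for 12.2% of names with the late samples higher. Without the E10 library of run 2 the late increase was 6.11 log2 units (adjusted p = 0.00178, edgeR). Counting only reads identical to the mature sequence ended both calls (slope 0.45, adjusted p = 0.119, and late increase 3.85, adjusted p = 0.0608, edgeR). The E10 library of run 2 held 1309 of these 4597 reads, and without it the identical reads passed the test for the slope again (SE 0.18, edgeR adjusted p = 0.000656), with a late increase of 5.57 (edgeR adjusted p = 0.0032).

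Most reads of rno-miR-219-2-3p were shorter than the annotated miRNA. The 5 most frequent tags and 2 further ones with added U are shown in the letters of the files, with the seed in capitals in the first 3 and the bases past the mature 3′ end in capitals in the rest.
20 nt: aGAATTGTggctggacatct
19 nt: aGAATTGTggctggacatc
22 nt: aGAATTGTggctggacatctgt
22 nt with 1 A: agaattgtggctggacatctgtA
22 nt with AA: agaattgtggctggacatctgtAA
22 nt with 1 U: agaattgtggctggacatctgtT
22 nt with UU: agaattgtggctggacatctgtTT
The 20-nt tag, which ends 2 nt before the annotated end, had 230481 reads (74.1% of all), the 19-nt tag had 60203 (19.4%) and the full 22-nt sequence 4597 (1.48%, or 1.06% without the E10 library of run 2). The 3 tags carry the same seed. Ends at 18 nt and 21 nt were rare (0.513% and 0.548% of reads). Tags longer than 22 nt together had more reads than the 22-nt form, with 6738 reads ending 1 nt past the mature end, 4470 ending 2 nt past it and 513 ending 3 nt past it.

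**Figure D2:**
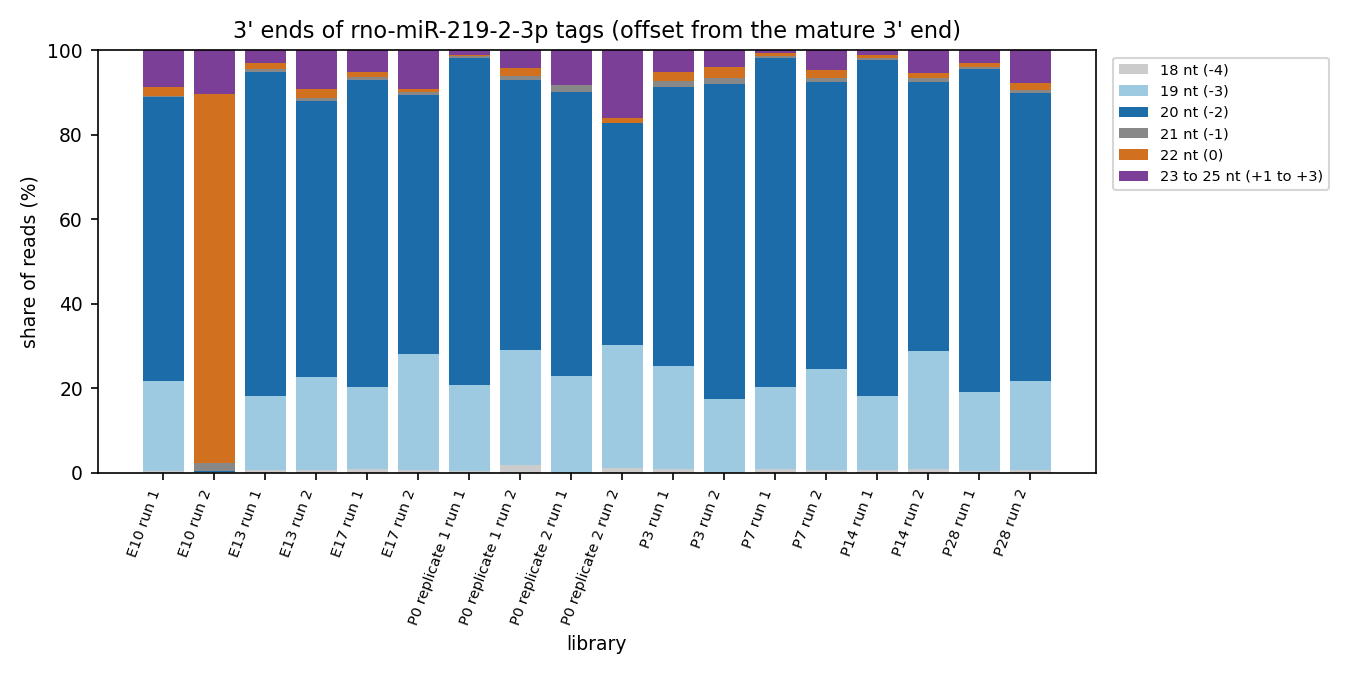
Share of rno-miR-219-2-3p reads, in percent, by the position of the 3′ end in each of the 18 libraries; each stacked bar adds to 100%, and the legend gives the length counted from the mature 5′ end and the offset from the mature 3′ end. In 17 libraries the 20-nt form is the largest share (52.7% to 79.5%), and in the E10 library of run 2 the 22-nt form is (87.2%).

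The 20-nt form led at early and late stages alike, outside the E10 library of run 2. In run 1 the 20-nt ends made up 67.1% of reads at E10, 76.6% at E13, 72.7% at E17, 77.5% and 67.2% in the P0 samples, 66.3% at P3, 78.0% at P7, 79.5% at P14 and 76.4% at P28. In run 2 their shares were 0.333%, 65.4%, 61.3%, 63.8% and 52.7%, 74.6%, 68.0%, 63.7% and 68.3% in the same order. Late and early samples overlapped in both runs. The mean 3′ end lay 2.10 nt before the mature end late (offset -2.10 ± 0.06, SD, n = 3) and at an offset of -1.68 ± 0.74 (SD, n = 6) early, a difference of -0.41 nt that did not pass the test (exact two-sided permutation test, p = 0.143). Without the E10 library of run 2 the difference was -0.14 nt (exact two-sided permutation test, p = 0.143).

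Run 1 gave shorter 3′ ends than run 2 in all 9 tissue samples, or in 8 of 9 when only tags shared by the runs were used, where P0 replicate 1 differed by 0.02 nt the other way (exact two-sided sign-flip test, p = 0.00781). The mean offset was lower in run 1 by 0.03 nt (E17) to 0.20 nt (P0 replicate 2) in 8 tissue samples, and the E10 offsets were -1.85 (run 1) and 0.16 (run 2). The mean difference was -0.32 nt (SD 0.64, n = 9 pairs, exact two-sided sign-flip test, p = 0.00391, the smallest p that 9 pairs allow), and without E10 it was -0.11 nt (SD 0.07, n = 8 pairs, exact two-sided sign-flip test, p = 0.00781).

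Reads past the mature 3′ end nearly all carried added A or U. The precursor continues with ggu after the mature sequence, yet of 11697 reads with the mature 5′ end and extra bases only 28 had the bases of the precursor. Another 7485 had only A added, 3382 only U and 802 other letters. A single A was the most frequent addition (3877 reads), followed by AA (3341), a single U (2797) and UU (562). Such added bases are known from small RNAs as the work of nucleotidyl transferases.

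Additions were frequent on the 22-nt form and rare on the 20-nt form. Of the reads that were 22 nt or 22 nt plus 1 base, 62.2% in run 1 and 56.7% in run 2 had the added base, and 73.4% in run 2 without its E10 library, so that the order of the runs depended on that library. For the 20-nt form the share was 0.145% in run 1 (91 A, 162 U and 7 C against 179095 plain reads) and 0.179% in run 2, counting only additions that differ from the precursor's own next base. For the 19-nt form, where an added U cannot be told from the miRNA's own base, the corresponding shares were 1.27% and 0.512%. The rare 21-nt form had 4.08% in run 2, and 20 A, 3 C and 26 G against 1040 plain reads in run 1. On these shorter forms an added base cannot be told from a mismatch at the last base of the next longer form. This applies most to the rare 18-nt form, where 831 U and 157 A stood against 1149 plain 18-nt reads but 43294 plain 19-nt reads in run 1, so no share is read from it. The contrast between the 22-nt and the 20-nt form was present in both runs.

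The extended reads went up with the other forms, and from P7 on their levels differed less between runs than those of the 20-nt form. Reads ending past the mature 3′ end went from 3.08 TPM at P3 to 17.5 at P7, 74.5 at P14 and 541 at P28 in run 1. In run 2 they went from 2.67 to 19.1, 45.4 and 259 TPM. From P3 to P28 these reads went up 176 times in run 1 and 97.2 times in run 2, and the 20-nt ends 342 and 45.5 times. At P7 the extended reads were at 0.915 times their run 2 level in run 1, where the 20-nt ends were at 8.45 times theirs. The share of extended among extended and full-length reads was 45.1% to 83.6% in the late libraries, and 61.4% to 100% in the early ones other than E10 of run 2 (10.6%), where some early values rest on as few as 5 extended reads.

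The 5′ end, which sets the seed, was almost invariant. Of all reads 99.75% began at the annotated base, 430 reads began 1 nt later and 330 reads 1 nt earlier. The share of reads with another 5′ end was 0.241% at P7, 0.313% at P14 and 0.236% at P28, and 0% (P0 replicate 2) to 0.851% (P3) in the earlier tissue samples. The median over other miRNAs with at least 1000 reads in a library was 1.60% to 3.60%, above the value of rno-miR-219-2-3p in each of the 18 libraries. Late and early samples differed by -0.03 percentage points (exact two-sided permutation test, p = 0.881).

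Tags with the mature 5′ end and 1 internal mismatch were kept apart, and they belonged largely to run 1. They made up 10.2% to 18.2% of the reads with this 5′ end in the libraries of run 1 and 1.06% to 4.81% in those of run 2. Run 1 was higher in 9 of 9 tissue samples, by 11.1 percentage points on average (SD 2.92, exact two-sided sign-flip test, p = 0.00391, a comparison chosen after the values were seen). In run 1 only 3 to 8 of 104 to 174 other miRNAs with at least 1000 reads had a higher share, and their median was 2.93% to 7.94%. In run 2 the median was 1.60% to 4.02%, and 7 to 105 of 105 to 225 other miRNAs were above rno-miR-219-2-3p.

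Most of the mismatches of run 1 fell on neighbouring bases. The most frequent tag of each of the main changes is shown with the changed base in capitals, and positions are counted from 1 at the 5′ end, with the base of the mature sequence first.
C16A: agaattgtggctggaAatct
A15G: agaattgtggctggGcatct
A17C: agaattgtggctggacCtct
A4C: agaCttgtggctggacatct
C16T: agaattgtggctggaTatct
C16A had 15006 reads in run 1 and 81 in run 2, and A15G had 13231 and 180, so that these 2 changes made up 35.0% and 31.1% of all mismatch reads. Most of these reads came from the P28 library of run 1, with 12732 for C16A and 10874 for A15G, so the shares rest largely on that library. At P28, C16A was in 6.77% of reads in run 1 (95% exact binomial interval 6.66% to 6.88%) and in 0.0968% in run 2 (0.0726% to 0.127%). A15G was in 5.84% and 0.203% of them. Over run 1 as a whole C16A reached 6.06% and A15G 5.38%, above the highest share of the same change at the same position in any of 61 and 72 other miRNAs (0.364% and 0.783%). In single libraries of run 1, C16A ran from 1.38% (P3) to 6.77% (P28) and A15G from 3.29% (P14) to 7.01% (E17). In run 2 the shares were 0.104% and 0.232%. What sets the runs apart was not tested.

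**Figure D3:**
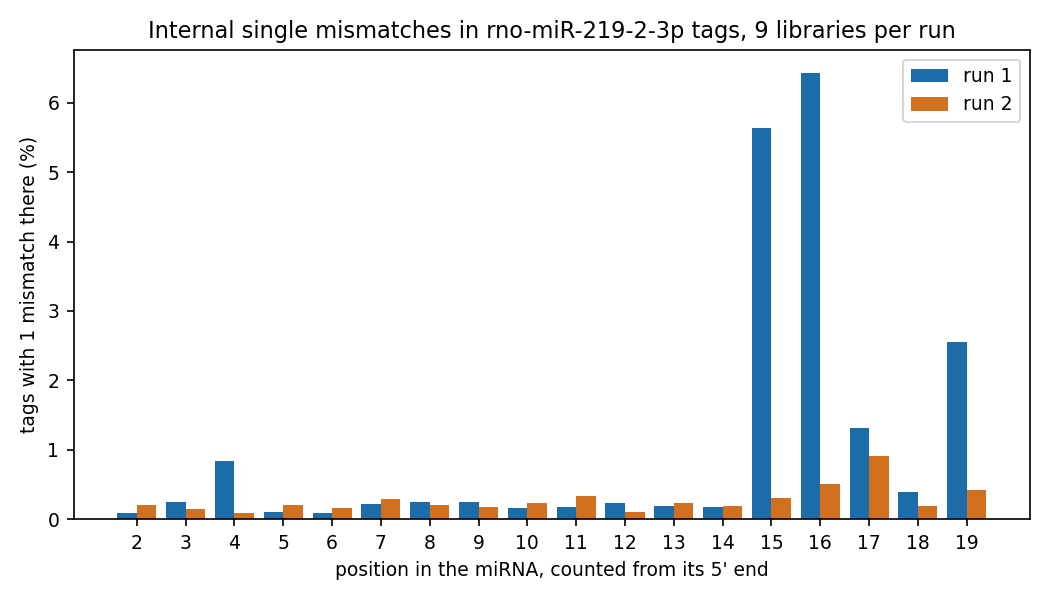
Share of rno-miR-219-2-3p tags with a single mismatch at each position, in percent of reads with the mature 5′ end that reach at least 3 bases further, for the 9 libraries of each run summed. Positions 15 and 16 stand out in run 1 (5.64% and 6.43%) and are at 0.312% and 0.513% in run 2.

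The other frequent changes followed no common pattern across libraries. A17C was in 11.6% of reads at P3, 6.87% at E10 and 6.15% (4 of 65 reads) in P0 replicate 2 in run 1. It was in at most 1.06% of reads in the other libraries of that run. The base of these shares includes 18-nt and 19-nt tags, in which this position is among the last 3 bases and was not counted, so the shares are lower than among longer tags. In run 2 it was highest at P3 as well (2.35%). These 3 tissue samples are those in which run 1 did not give a higher level of the miRNA than run 2. A4C, the only 1 of the 5 in the seed, had 978 of its 993 reads in the P28 library of run 1. The total mismatch share overlapped between late and early samples, at 10.8% ± 1.95 (SD, n = 3) late and 9.54% ± 2.91 (SD, n = 6) early (difference 1.31 percentage points, exact two-sided permutation test, p = 0.548). In run 1 alone the difference was -1.90 percentage points. Mismatches at positions 2 to 8 taken alone were at 1.36% to 2.35% late and 0% to 0.786% early, and their difference of 1.21 percentage points passed the test (exact two-sided permutation test, p = 0.0238).

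With the runs summed, precursor-specific 5p tags came mostly from Mir219a1 up to P0 and mostly from Mir219-2 from P3 on. The 5p arm is the same in Mir219-2 and Mir219a1, but tags that run 2 bases past its 3′ end carry letters of one precursor only, as in the Mir219-2 tag tgattgtccaaacgcaattctTG, with the extra bases in capitals. With the runs summed, Mir219-2 gave 3.45% of such tags at E10 (732 of 21208 reads), 16.3% at E13, 5.77% at E17, 28.4% in the first P0 sample (6 of 50 reads in the second), 68.5% at P3, 96.4% at P7, 100% at P14 and 99.6% at P28. All samples up to P0 lay below P3, and P3 lay below P7, P14 and P28. Between E13 and P14 the shares rest on 50 to 329 reads, and E10 is dominated by run 2 (610 of 20542 reads from Mir219-2, against 122 of 666 in the other run). In P0 replicate 1 of run 1 alone, 4 of the 5 such reads came from Mir219-2. The levels behind the share moved for both precursors. Mir219-2 tags were at 11.05 and 37.1 TPM at E10, 0.110 to 1.14 TPM from E13 to P0, 4.98 and 4.57 TPM at P3 and 4.69 to 39.8 TPM from P7 to P28, so both E10 libraries were within the late range. Mir219a1 tags were at 49.3 and 1214 TPM at E10 and at 0 to 0.821 TPM from P7 to P28. No test was run on this share, since the pattern was noticed in the data. The 3p arms did not follow it in every library, as reads of the Mir219-2 arm exceeded those of the Mir219a1 arm at E13 (3384 against 1882) and in P0 replicate 1 (955 against 113) in run 1.

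**Figure D4:**
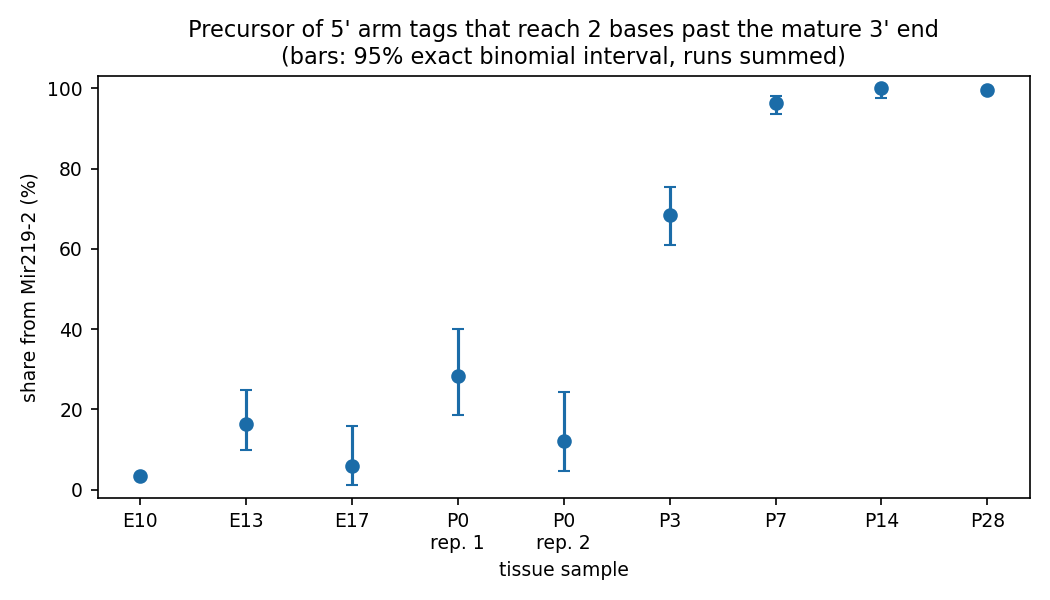
Share of precursor-specific 5p tags, in percent, that came from Mir219-2 rather than Mir219a1 in each tissue sample with the runs summed; bars are 95% exact binomial intervals and cover counting error only. The points lie between 3.45% and 28.4% up to P0, at 68.5% at P3 and at 96.4% or more from P7 on.

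Loop fragments of Mir219-2 were also more frequent late, at low counts. Tags lying wholly between its arms, most often precursor positions 42 to 61, which end just before the 3p arm, had 0 to 6 reads in each library up to P3. They had 6 and 17 reads at P7, 12 and 38 at P14 and 65 and 74 at P28 (run 1 and run 2). Loop tags of Mir219a1 had 1 and 59 reads at E10 and 0 in every other library.

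Counted over both precursors, the 5p arm did not follow rno-miR-219-2-3p. rno-miR-219a-5p was at 722 and 1429 TPM at E10 (run 1 and run 2), at 17.4 to 91.4 TPM from E13 to P14 and at 107 and 147 TPM at P28. Its slope over the stage order was -0.32 (SE 0.14, edgeR adjusted p = 0.0717) and turned to 0.12 without E10 (edgeR adjusted p = 0.45). At P28 there were 163 reads of rno-miR-219-2-3p per read of rno-miR-219a-5p in run 1 and 22.6 in run 2, whereas at P3 there were 2.19 and 2.82. This ratio compares read counts of sequences that may be captured unequally in a library. It also sets a product of Mir219-2 alone against a sequence that both precursors give. The 5p tags specific to Mir219-2 were at 11.05 and 37.1 TPM at E10. They were at 0.110 to 1.14 TPM from E13 to P0 and at 4.69 to 39.8 TPM from P7 to P28.

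The 3p arm of the other precursor fell. rno-miR-219a-1-3p was at 702 and 1594 TPM at E10, 267 and 459 at E13, 113 and 119 at E17, 16.6 to 40.4 in the P0 libraries, 26.8 and 21.6 at P3 and 2.96 to 9.36 from P7 to P28. The level went down from E10 to E17 and again from P3 to P7 in both runs. The slope over the stage order was -1.03 (SE 0.11, edgeR adjusted p = 1.45e-05), and the late samples were lower as well (SE 1.16, edgeR adjusted p = 0.0164), a call lost without TMM scaling (0.0569) and without P7, P14 or P28 (0.0511 to 0.0801). The remaining relatives were rare, at 0.501 to 17.6 TPM. The antisense product rno-miR-219b fell by 0.33 log2 units from stage to stage (edgeR adjusted p = 0.0256). Candidate 45 of the study's list of predicted miRNAs, which shares bases 2 to 7 with rno-miR-219-2-3p, fell by 0.31 (edgeR adjusted p = 0.0399), and Candidate 4, antisense to rno-miR-219a-1-3p, fell by 0.41 (edgeR adjusted p = 0.00924). All 3 of these calls were lost without P28 (edgeR adjusted p = 0.0681 to 0.238).

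**Figure D5:**
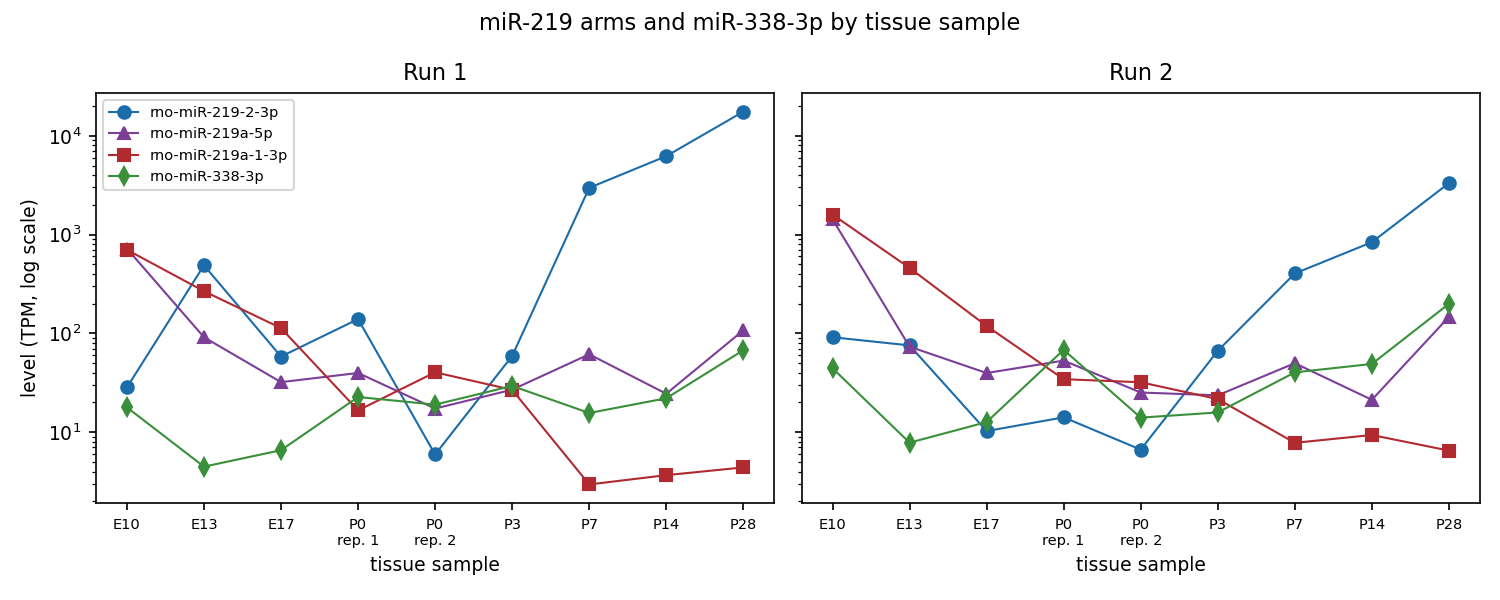
Levels in TPM on a log axis of rno-miR-219-2-3p, both other miR-219 products and rno-miR-338-3p in the 9 tissue samples of run 1 (left) and run 2 (right); lines join the tissue samples in order of age. rno-miR-219-2-3p ends at 17548 and 3316 TPM and rno-miR-219a-1-3p at 4.40 and 6.51 TPM.

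Other miRNAs linked to the oligodendrocyte lineage did not move as a group. Of 12 such miRNAs beside rno-miR-219-2-3p, 3 had a rising slope, 4 a falling one and 5 neither, where 15.6% of all names rose and 30.6% fell, and their median slope was -0.29 against -0.12 over all 559 names. For late against early samples none was higher, 5 were lower and 7 did not pass the test (edgeR), where 9.48% of all names were higher and 16.6% lower. Of the lower calls 0 were left without TMM scaling and without P14 or P28, and 2 without P7, while of the rising slopes 1 was left without TMM scaling, without P28 and in run 1 alone. rno-miR-338-3p, the other miRNA best known from oligodendrocyte maturation, was at 17.8 and 44.4 TPM at E10, at 4.48 to 68.2 TPM from E13 to P14 and at 67.6 and 199.3 TPM at P28, with a slope of 0.42 (SE 0.12, edgeR adjusted p = 0.0136). This call was lost without P28 (edgeR adjusted p = 0.123), in run 1 alone (0.071) and without TMM scaling (0.0537), and the slope was -0.25 when only reads identical to the mature sequence were counted, or 0.50 (edgeR adjusted p = 0.0285) with such reads but without the E10 library of run 2. Its 5p arm rno-miR-338-5p rose by 0.32 from stage to stage (edgeR adjusted p = 0.0374), a call also lost without P28 (0.207), and rno-miR-138-5p, known from early oligodendrocyte differentiation and from neurons, rose by 0.65 (edgeR adjusted p = 0.00133). The late-to-early difference passed the test for none of these 3 (adjusted p = 0.066 to 0.15, edgeR). rno-miR-17-5p and rno-miR-92a-3p of the miR-17-92 cluster, which is known for precursor proliferation, fell by 0.74 and 0.68 from stage to stage (adjusted p = 0.00168 and 0.000339, edgeR), and rno-miR-32-5p and rno-miR-219a-1-3p were the others that fell.

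Of the marker miRNAs of other cell types, 1 passed the test for higher levels from P7 on. Of 13 such miRNAs, 1 had a rising slope (rno-miR-128-3p of neurons, 0.91, adjusted p = 0.0229, edgeR), 5 a falling slope and 7 neither, with a median of -0.11, where 15.6% of all names rose and 30.6% fell. Without E10, 1 falling slope was left. For late against early samples 1 was higher, none was lower and 12 did not pass the test (edgeR), where 9.48% of all names were higher and 16.6% lower. The 1 was rno-miR-143-3p of mural cells, the smooth muscle cells and pericytes of vessels, with a difference of 1.66 log2 units (SE 0.40, edgeR adjusted p = 0.0182) and of 2.14 in the samples labelled cortex alone (edgeR adjusted p = 0.00414), a call lost without TMM scaling (0.125) and without P14 or P28 (0.0786 and 0.0789). The summed neuronal miRNAs (miR-124, miR-128, miR-137 and miR-134) were at 21791 to 181867 TPM early and 171210 to 201329 TPM late. The first P0 sample (181867 TPM) was already within the late range, while the second (105689 TPM) and P3 (153778 TPM) were below it. The mesenchymal miR-199a-3p and miR-214 were at 29842 TPM (E10) and 41168.5 TPM (E13), 228 to 1003 TPM at E17 to P3 and 1057 to 2028 TPM late, and the red-cell miR-451 and miR-144 at 1143 TPM at E10, 44.4 to 99.8 TPM from E13 to P3 and 32.3 to 67.2 TPM late. The mural miR-143 and miR-145 together were at 1292 and 974 TPM at E10 and E13, at 218 TPM at E17, 394 and 182 TPM in the P0 samples and 292 TPM at P3, and at 1097, 2367 and 1773 TPM from P7 to P28. Nearly all of this sum is rno-miR-143-3p. rno-miR-145-5p went in opposite directions in the runs, from 58.1 TPM at P3 to 2.68 TPM at P7 in run 1 and from 12.4 to 33.5 TPM in run 2 (late-to-early difference -0.33, edgeR adjusted p = 0.783). The myeloid miR-223 and miR-142-3p at 0.468 to 32.9 TPM early and 1.29 to 2.40 TPM late, and the endothelial miR-126 at 17.4 to 80.1 TPM early and 57.8 to 70.9 TPM late. The early samples that passed the late range were E10 for the endothelial sum (80.1 TPM) and E10 and E13 for the mesenchymal sum, and the others lay below it for these sums. For the mural sum E10 was within the late range. For the myeloid sum E10 (32.9 TPM) and E13 (4.90 TPM) passed it and P0 replicate 1 (1.74 TPM) was within it. For the red-cell sum E10, E13 and P0 replicate 1 (76.0 TPM) passed it, and no early sample lay below it. The part of tissue makeup in the level of rno-miR-219-2-3p was not tested. In the samples labelled cortex, without E10 and E13, its late increase was 6.36 log2 units (adjusted p = 0.00129, edgeR).

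The miRNAs with the profile most like that of rno-miR-219-2-3p were rno-miR-6331, rno-miR-323-5p, rno-miR-133b-3p, rno-miR-485-5p and rno-miR-409a-5p, by Pearson's r of log2(TPM + 1) over the 9 tissue samples among 558 other names. Their r ran from 0.983 to 0.953. The points share libraries and the r is a description. rno-miR-6331 was at 0.244 to 3.63 TPM up to P3 and at 7.37, 9.06 and 13.8 TPM from P7 to P28, and rno-miR-133b-3p, best known from muscle, had 0 to 6 reads in each library up to P3 and 8 to 34 from P7 on. rno-miR-323-5p, rno-miR-485-5p and rno-miR-409a-5p rose by 0.37 to 0.50 log2 units from stage to stage. Of the 5 names, 3 remained among the 5 most alike in run 1 alone and 1 in run 2 alone. rno-miR-338-3p had an r of 0.574 and rno-miR-219a-5p one of 0.0924.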

How the data were processed

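Small RNA of 9 tissue samples was sequenced in 2 runs. The authors size-selected RNA, ligated adapters, removed low-quality and contaminant reads, trimmed adapters and deposited, per library, the length and read count of each clean tag. The deposited counts are raw, at 18 to 30 nt in run 1 and 18 to 39 nt in run 2. No aligner or build enters these files. Tags were matched to 786 sequences, namely 692 rat mature miRNAs of RefSeq (GRCr8), 12 from the study's primers and 82 of its candidates. The rno-miR-219-2-3p sequence given by the primers equals RefSeq's rno-miR-219a-2-3p. From 65.2% to 89.6% of clean reads per library matched. A tag fitting several names counted for each. TPM is reads per 1000000 clean reads. Ligation and PCR can favour some sequences, and reads carry no molecular identifiers.

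Counts were summed over runs and tested with edgeR 4.0.16 (TMM factors, quasi-likelihood test, Benjamini-Hochberg adjustment) for names with at least 10 reads in 2 tissue samples, on stage order 1 to 8 and for P7 to P28 (3) against E10 to P3 (6). Outside P0 each stage is 1 tissue sample, so a p-value treats stages as replicates. Levels, ends and mismatches were compared with exact permutation tests in scipy 1.17.1, and DESeq2 1.42.0 was an alternative. A mismatch counted as internal from position 2 up to, but not in, the last 3 bases of the tag. The matching and the slope fit were tried on simulated data, the latter with less spread than these data had. The late-to-early fit was not tried in this way. Named were the miRNA, its relatives (a miR-219 name, the same bases 2 to 7, or antisense over at least 16 nt), members of 2 fixed lists, the 5 most alike, its end classes and its 5 most frequent tags and substitutions. The miRNA and the lists were chosen with earlier results of these data known. The tests of level therefore give no independent support. Predicted targets were not used here.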

Additional observations from a re-analysis of the deposited data

Results flagged for a closer look

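Results were listed here where 1 of the 6 early tissue samples lay far from the other 5 by Dixon's criterion. Chance meets it in about 1 of 20 groups of normally spread replicates. These samples came from different stages and levels were taken as TPM without logarithms, so that rate need not hold here and the flag depends on the scale. The level of rno-miR-219-2-3p at E13 (282 TPM, mean of the runs) was set apart from the other early samples (6.30 to 76.8 TPM), and this rested on run 1 (488 TPM, against 75.6 TPM in run 2). Its mean 3′ end at E10 (offset -0.189 nt with the runs summed) lay apart from the other 5 (-2.15 to -1.78), as did the E10 library among those of run 2 (0.158 nt). The share of full-length reads moved with it, at 46.7% in the median of 225 other miRNAs of that library, and its part in the result was not tested. The levels of rno-miR-219a-5p (1075 TPM) and rno-miR-219a-1-3p (1148 TPM) at E10 were also far from those of the other early samples.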

How the results depend on the processing

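The edgeR rise of rno-miR-219-2-3p kept its direction in all 22 alternatives and its call in 21, for the slope as for the late-to-early difference. The exception was counting only reads identical to the mature sequence (slope 0.45, adjusted p = 0.119, and late difference 3.85, adjusted p = 0.0608, edgeR). Without the E10 library of run 2 the identical reads passed the threshold for the slope (adjusted p = 0.000656, edgeR) and the late difference (5.57), which was 6.13 in mean log2 TPM (exact permutation test, p = 0.0238). This and the other alternative without that library were chosen after seeing the data. The late difference in mean log2 TPM was 5.13 with identical reads and 6.95 with samples labelled cortex only, and 5.58 (without P28) to 6.89 (without P7) leaving out 1 tissue sample at a time. It missed the threshold with identical reads, and also with samples labelled cortex only and without P7, P14 or P28, where the smallest p that the exact test allows is above 0.05. Beyond that library, the cause was not tested for any of these changes.

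The late-to-early difference in other 5′ ends changed sign to 0.278 percentage points in run 2 alone and 0.139 with tags seen in both runs, and ran from -0.0890 to 0.0812 leaving out 1 tissue sample. That in the mismatch share was -1.90 percentage points in run 1 alone, -0.654 without the E10 library of run 2, 7.37 with tags seen in both runs and 1.21 at positions 2 to 8. The last 2 passed the test (exact permutation test, p = 0.0238 for each), whereas the value with all tags did not. Keeping only tags seen in both runs took the early mean share from 9.54% to 2.65% and the late share from 10.8% to 10.0%. Rare tags can hardly recur in both runs where the miRNA had few reads, as in early samples. No late increase is therefore read from the 7.37. The 3′ offset difference ran from -0.508 (without P0 replicate 1, where it passed the test) to -0.115 (without E10). Of the 5 most alike names, 3 stayed in run 1 alone, 1 in run 2 alone and 3 without the E10 library of run 2. For rno-miR-338-3p, identical reads gave a slope of -0.25 and a late difference of -0.71. For rno-miR-219a-5p the slope ran from -0.56 (without P28, past the threshold) to 0.12 (without E10) and the late difference from -1.52 (without P28) to 0.49 (without E10), and was 0.70 in samples labelled cortex only.

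With 18 libraries and the run number as a replicate block, the slope was 1.02 and the late difference 5.89. The paired runs are not independent samples, so this block overstates n. It raised the names past the threshold for the late difference from 146 to 292. Of names past it for the slope there were 258 (46.2% of 559 tested), against 51 rising and 83 falling in run 1 alone and 167 without P28. With the study's own sequences only, there were 50, a similar share (45.5% of 110 tested). The late count was 221 with DESeq2, 8 without TMM, 67 in run 1 alone, 63 with identical reads, 52 without P7, 5 without P14 and 4 without P28. It was 31 of 110 with the study's own sequences (28.2%, against 26.1% in the main fit). The fewest reads behind a level were 61, in a library of 10258095 clean reads.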
